A study of Mus musculus with 1 sample.

Results

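The poly(A) tails of 7 mouse genes that write, maintain or oxidise DNA methylation were examined in wild-type 24h-EpiLCs. The genes were taken by name, namely the methyltransferase genes Dnmt1, Dnmt3a and Dnmt3b, the cofactor gene Dnmt3l, the maintenance partner Uhrf1, and the oxidase genes Tet1 and Tet2. Their identifiers were looked up in the GENCODE vM21 annotation, and all 7 had transcripts, 1743 of the 701976 nuclear transcripts in the table. A transcript here is a read that was covered by at least 7 passes of the sequencer around the same circular molecule. Of the 7 genes, 6 reached at least 10 transcripts, as did 7146 of 12816 nuclear genes, and Tet2 did not.

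The cells were of the ICR strain, carried no knockout and were collected after 24 h in differentiation medium, on their way from embryonic stem cells to epiblast-like cells (EpiLCs), which model the step from naïve to formative pluripotency. They grew on Matrigel in N2B27 medium with activin A, bFGF and KSR. Tails were read by PAIso-seq, which copies whole transcripts with their tails into circular cDNA and sequences them on the PacBio platform. There was 1 group with 1 sample, which held 2 barcoded replicates of 246316 and 455660 nuclear transcripts. They are numbered here by barcode, because the labels do not tie a barcode to a replicate or say whether the replicates were separate cultures. The spread between them may therefore be technical, and with 1 group no test between conditions could be made.

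DNA methyltransferases add methyl groups to cytosine, mostly at CpG sites. DNMT3A and DNMT3B methylate unmodified sites, and DNMT3L, which has no catalytic activity of its own, assists them. DNMT1 copies the marks onto new strands after replication, guided by UHRF1, which binds hemimethylated DNA, and the TET enzymes oxidise the methyl group. The genome gains methylation as naïve cells move towards the formative state, and Dnmt3a and Dnmt3b are widely used as markers of that step.

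Tail length was summarised for each gene as the geometric mean over its transcripts. In replicates 1 and 2, respectively, Dnmt3l had 87.0 and 91.1 nt, Dnmt3b 86.5 and 80.6 nt, Dnmt1 85.5 and 76.5 nt, Dnmt3a 73.7 and 69.0 nt, and Uhrf1 79.2 and 63.0 nt. Tet1 stood far below these, with 29.0 and 17.3 nt. The median gene of the 7146 tested had 76.4 nt over both replicates, and the median genes of the single replicates had 78.0 nt among 4488 and 76.8 nt among 5923 genes. Dnmt3l, the longest-tailed of the 6 genes, was at percentile 76.7 of all tested genes, and Tet1, the shortest-tailed, at percentile 1.25.

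Ordered by the mean of both replicates, 2 of 5 pairs of neighbours did not differ beyond their spread. The mean difference was 5.49 ± 7.11 nt (SD, n = 2 replicates) between Dnmt3l and Dnmt3b, and 0.254 ± 8.13 nt between Dnmt3a and Uhrf1. The other 3 pairs differed in the same direction in each replicate and by more than the SD of the difference. Dnmt3b exceeded Dnmt1 by 2.59 ± 2.17 nt, which was less than the SD of either gene (4.21 nt for Dnmt3b and 6.38 nt for Dnmt1). Dnmt1 exceeded Dnmt3a by 9.62 ± 3.07 nt, and Uhrf1 exceeded Tet1 by 47.9 ± 3.18 nt. With tails of at least 6 nt, Dnmt3b and Dnmt1 had 86.5 and 85.5 nt in replicate 1 but 90.8 and 91.8 nt in replicate 2. Under that limit Uhrf1 and Tet1 had 79.2 and 64.1 nt in replicate 1 and 91.7 and 85.6 nt in replicate 2.

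Against all genes, the group did not sit to either side. Dnmt3a and Tet1 were below the median gene in both replicates, which makes 2 of 6 genes, where 33.4% of the 4286 genes that reached 10 transcripts in both replicates were. Dnmt3b and Dnmt3l were above it in both, again 2 of 6, where 35.7% of all genes were. Dnmt1 and Uhrf1 were above it in replicate 1 and below it in replicate 2. The median of the 6 genes minus that of all genes came to 4.35 nt in replicate 1 but to -4.03 nt in replicate 2, so the sign was not the same.

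**Figure D1:**
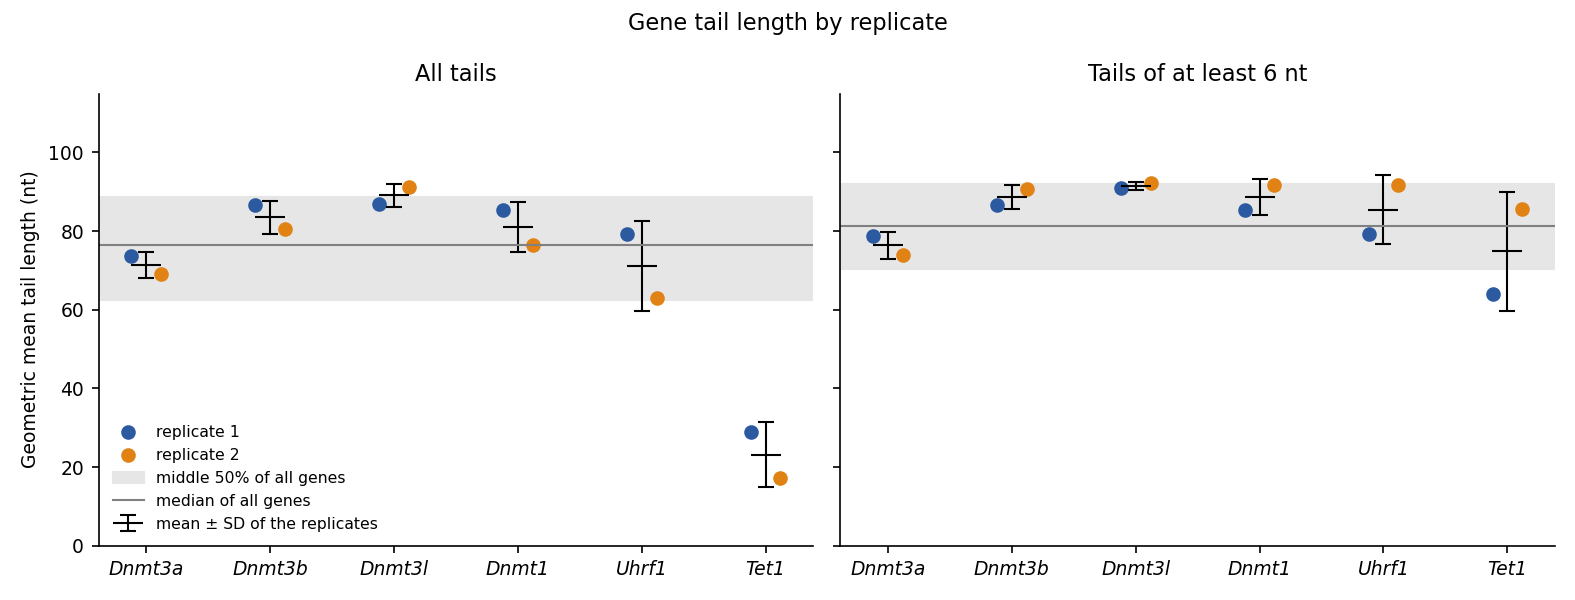
Geometric mean tail length in nt of the 6 genes with at least 10 transcripts, for all tails (left) and for tails of at least 6 nt (right). Points are replicates 1 and 2, black bars the mean ± SD of both, and the grey line and band the median and the middle 50% of all tested genes over both replicates. Tet1 lies at 29.0 and 17.3 nt on the left and at 64.1 and 85.6 nt on the right, and the other genes lie between 63.0 and 92.2 nt in both panels.

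Dnmt3a (ENSMUSG00000020661, GRCm38 chromosome 12, 3806007 to 3914443, plus strand) encodes a de novo methyltransferase. It had 194 and 300 transcripts, and its tails ran from 1 to 221 nt in replicate 1 and from 1 to 232 nt in replicate 2. The median tail was 86.5 nt (95% interval 73 to 98) and 82 nt (73 to 92), with 91 nt for all nuclear transcripts in either replicate. Tails over 90 nt made up 46.4% and 45.7% of its transcripts, and 50.6% of all nuclear transcripts in each replicate. Both Wilson 95% intervals of Dnmt3a, 39.5% to 53.4% and 40.1% to 51.3%, include that share. The reads carry no molecular identifiers, so these and all later intervals cover counting error only. The longest annotated Dnmt3a transcript has 9685 bases. The 168 tested genes with an annotated transcript at least that long, Dnmt3a among them, had 53.1 nt as the median of their gene tails, and 114 of them had shorter tails than Dnmt3a.

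Dnmt3b (ENSMUSG00000027478, GRCm38 chromosome 2, 153649450 to 153687730, plus strand) encodes the other de novo enzyme. Its 148 and 151 transcripts had median tails of 91.5 nt (82 to 110) and 98 nt (83 to 107). The tails ran from 6 to 286 nt and from 1 to 276 nt. The replicates were close in length and apart in base content. At least 1 base other than A was present in 37 of 148 tails in replicate 1, or 25% (18.7% to 32.5%), and in 12 of 151 tails in replicate 2, or 7.95% (4.60% to 13.4%). Over all nuclear transcripts the shares were 12.2% and 9.55%. The intervals of the replicates did not overlap for Dnmt3b, with replicate 1 higher, which was the case for 1 of the 6 genes and for 1.7% of the 4286 genes. That share counts this direction alone. Intervals narrow with more tails, and the 4286 genes needed only 10 transcripts in each replicate, so depth was not matched.

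The extra bases in Dnmt3b tails of replicate 1 occurred at both ends and inside the tail. Among its 147 tails of at least 10 nt, 6 had such a base in the first 3 positions, 18 further inside and 20 in the last 3 positions. In replicate 2, of 147 such tails, the counts were 1, 8 and 6. For replicate 1 these were 4.08%, 12.2% and 13.6%, where all nuclear tails had 1.32%, 5.38% and 6.55%. The inner part is far longer than 3 positions, so per position such bases were denser at the ends. T occurred in 21, G in 15 and C in 10 of the 37 tails of replicate 1, and 14 of the 37 held more than 1 such base. Tails that began with A and then T numbered 5 of 148 in replicate 1 and 0 of 151 in replicate 2, against 0.307% and 0.262% of all nuclear tails. This start was not among the planned values and was counted in no other single gene. Whether its bases are genomic was not tested. The median number of passes was 39 for the 37 tails and 38 for the other tails of replicate 1, and 37 and 31 in replicate 2. Some of the tails are shown to make the positions visible, 5′ to 3′ as sequenced, with every base other than A in capitals.
Dnmt3b replicate 1, 15 nt: aTaaaaaaaaaaaaa
Dnmt3b replicate 1, 22 nt: aTaaaaaaaaaaaaaaaaaaTT
Dnmt3b replicate 1, 46 nt: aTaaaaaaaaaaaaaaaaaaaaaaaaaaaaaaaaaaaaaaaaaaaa
Dnmt3b replicate 1, 56 nt: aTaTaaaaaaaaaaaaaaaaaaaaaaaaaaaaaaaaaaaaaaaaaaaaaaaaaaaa
Dnmt3b replicate 1, 53 nt: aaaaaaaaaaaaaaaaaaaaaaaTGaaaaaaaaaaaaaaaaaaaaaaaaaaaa
Dnmt3b replicate 1, 54 nt: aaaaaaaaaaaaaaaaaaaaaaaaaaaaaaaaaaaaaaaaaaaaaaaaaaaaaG
Dnmt3b replicate 2, 54 nt: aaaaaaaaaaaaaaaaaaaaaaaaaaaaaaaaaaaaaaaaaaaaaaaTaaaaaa
The first 4 begin with A and T, the fifth has both extra bases inside, and the sixth ends in G. The choice of tails does not reflect how common each kind was.

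Dnmt3l (ENSMUSG00000000730, GRCm38 chromosome 10, 78041947 to 78063622, plus strand) had the most transcripts of the group, 208 and 365. Median tails were 99 nt (90 to 111) for replicate 1 and 105 nt (95 to 112) for replicate 2. Tails over 90 nt made up 55.8% (49.0% to 62.4%) and 59.5% (54.3% to 64.4%) of its transcripts, and only the second interval lies wholly above the 50.6% of all nuclear transcripts. Tails of 1 to 5 nt were rare, with 2 and 1 transcripts, or 0.962% and 0.274%. The 5′ end of the annotated Dnmt3l gene overlaps Aire on the minus strand, from 78041947 to 78043610. Aire had 13 reads in the whole table, and the setting for strand in the authors' gene assignment was not given in the sources used here.

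A T in the first position marked a small set of Dnmt3l tails. It occurred in 6 of 208 tails in replicate 1, or 2.88% (1.33% to 6.15%), and in 8 of 365 in replicate 2, or 2.19% (1.11% to 4.26%). Over all nuclear transcripts the shares were 0.687% and 0.579%, below both intervals. In each of these 14 tails the first T was the only base other than A, and the tails ran from 30 to 176 nt with a median of 126.5 nt. Of the other genes, Dnmt3a had 1 such tail in replicate 1 and the rest had 0. The shortest in each replicate is shown.
Dnmt3l replicate 1, 31 nt: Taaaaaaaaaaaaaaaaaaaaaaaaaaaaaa
Dnmt3l replicate 2, 30 nt: Taaaaaaaaaaaaaaaaaaaaaaaaaaaaa
The tail was cut from the read at the end of its alignment, and whether such a first base is genomic was not tested. By the pooled share of tails that begin with T, Dnmt3l was at percentile 92.6 of the tested genes. How many of all genes had both intervals above the nuclear shares was not counted.

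Dnmt1 (ENSMUSG00000004099, GRCm38 chromosome 9, 20907209 to 20959888, minus strand) encodes the maintenance methyltransferase. Its 77 and 74 transcripts had median tails of 89 nt (74 to 111) and 119 nt (92 to 124). The arithmetic means were close, 102.8 and 104.3 nt. Replicate 2 had 25 of 74 transcripts at 121 to 150 nt, or 33.8%, and replicate 1 had 12 of 77, or 15.6%. All nuclear transcripts had 16.3% in replicate 2 and 16.0% in replicate 1, so the higher share was seen in 1 replicate. Replicate 2 alone had Dnmt1 tails of 1 to 5 nt, 3 in number. Those 3 put the geometric mean of replicate 2 below that of replicate 1, and with tails of at least 6 nt the values were 85.5 and 91.8 nt, in the other order.

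Uhrf1 (ENSMUSG00000001228, GRCm38 chromosome 17, 56303321 to 56323486, plus strand) encodes the protein that brings DNMT1 to hemimethylated CpG sites. It had 84 transcripts in replicate 1 and 42 in replicate 2, with median tails of 90 nt (71 to 109) and 92.5 nt (81 to 117). The geometric means of 79.2 and 63.0 nt differed by more than the medians. Of the 42 tails of replicate 2, 4 had 1 to 5 nt, or 9.52% (3.77% to 22.1%), and of the 84 of replicate 1 none had, which allows a share of up to 3.57% (3 counts). With tails of at least 6 nt the means were 79.2 and 91.7 nt. The low geometric mean of Uhrf1 in replicate 2 thus rested on 4 transcripts.

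The de novo group and the maintenance pair were then set side by side. The geometric mean over Dnmt3a, Dnmt3b and Dnmt3l was 82.2 and 79.7 nt, and over Dnmt1 and Uhrf1 82.3 and 69.4 nt. The de novo genes differed from the pair by -0.0996 nt in replicate 1 and by 10.3 nt in replicate 2, which gave 5.11 ± 7.36 nt (SD, n = 2). It did not exceed the spread between replicates. Over both replicates pooled it was 3.85 nt with all tails and -0.540 nt with tails of at least 6 nt.

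**Figure D2:**
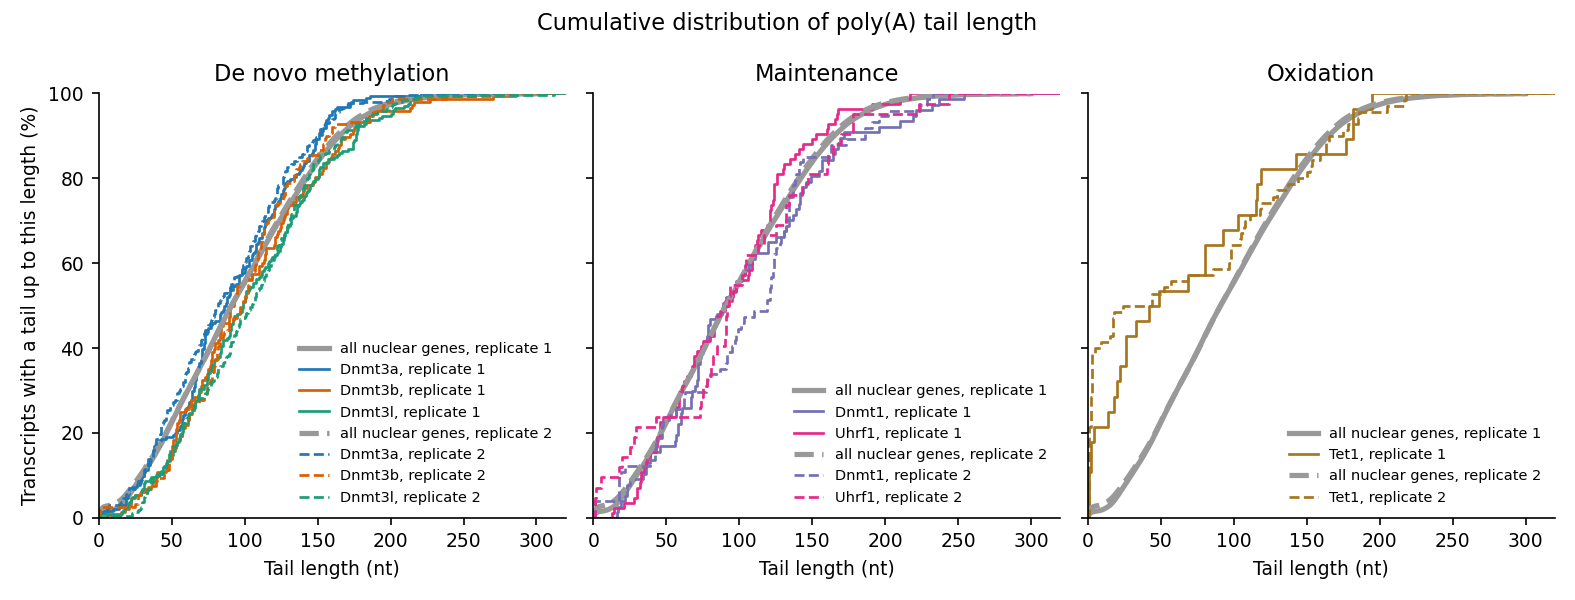
Cumulative share of transcripts (%) against tail length (nt) for the de novo, maintenance and oxidation genes, with replicate 1 as solid and replicate 2 as dashed lines and all nuclear transcripts in grey. Of Tet1 transcripts, 21.4% and 40.0% have tails of 1 to 5 nt, and 1.52% and 2.75% of all nuclear transcripts have. Dnmt3l lies mostly to the right of the grey lines in both replicates. The Dnmt1 curve of replicate 2 crosses the grey line. It has 4.05% of its tails at 1 to 5 nt and 64.9% over 90 nt, and all nuclear transcripts of that replicate have 2.75% and 50.6%.

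Tet1 (ENSMUSG00000047146, GRCm38 chromosome 10, 62804570 to 62908996, minus strand) encodes an oxidase of methylated cytosine. It had only 28 and 70 transcripts, with many very short and many long tails. Tails of 1 to 5 nt numbered 6 of 28 in replicate 1, or 21.4% (10.2% to 39.5%), and 28 of 70 in replicate 2, or 40.0% (29.3% to 51.7%). All nuclear transcripts had 1.52% and 2.75% of such tails. Both intervals of Tet1 lie above these shares, which was the case for 1 of the 6 genes and for 2.22% of the 4286 genes. By the pooled share of such tails, Tet1 was at percentile 99.1. The mean over the replicates was 30.7% ± 13.1 (SD, n = 2).

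At the other end, 10 of 28 and 29 of 70 Tet1 tails were over 90 nt, or 35.7% (20.7% to 54.2%) and 41.4% (30.6% to 53.1%), and the longest had 195 and 218 nt. Only 3 of 70 tails of replicate 2 exceeded 200 nt and none of replicate 1 did. Median tails were 45.5 nt and 34 nt in replicates 1 and 2, with wide intervals of 20 to 103 and 3 to 98 nt. Without the tails of 1 to 5 nt, the geometric mean of Tet1 was 64.1 nt over 22 transcripts and 85.6 nt over 42 transcripts. Against the median genes of 80.3 and 82.1 nt under the same limit, replicate 1 was below and replicate 2 above. Its percentile over both replicates moved from 1.25 to 40.6. The study's methods remove tails with fewer than 4 A among the first 8 bases, yet 33 of the 34 very short Tet1 tails in the deposited table hold fewer. With that filter added, Tet1 had 74.3 nt over both replicates and 1 tail of 1 to 5 nt, so its low value in this report rests on tails that the described filter would remove.

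The very short Tet1 tails were nearly all pure A. In replicate 1 they were 3 tails of 1 A, 2 of 2 A and 1 of 4 nt that alternated A and T. In replicate 2 they were 15 tails of 1 A, 5 of 2 A, 7 of 3 A and 1 of 5 A. Single A tails made up 50% and 53.6% of the very short Tet1 tails, and 55.8% and 59.9% of those of all nuclear transcripts. Reads with very short Tet1 tails had medians of 48 and 34.5 passes, and those with longer tails 31.5 in both replicates, so the former were covered no less often.

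Tet1 has the longest transcript of the group, with 14369 annotated bases. The 31 tested genes with an annotated transcript of at least that length, Tet1 included, had 46.0 nt as the median of their gene tails and 16.7% as the median share of very short tails, where all tested genes had 76.4 nt and 0%. Among these 31 genes, 5 had a shorter tail than Tet1, and Tet1 was at percentile 82.3 by the share of very short tails. The part of transcript length in the Tet1 result was not tested. The table lists 2 other annotated genes on the same strand within Tet1, Gm48353 and Gm26479, at 0 reads.

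Tet2 (ENSMUSG00000040943, GRCm38 chromosome 3, 133463679 to 133545139, minus strand), the second oxidase gene of the list, had 0 transcripts in replicate 1 and 2 in replicate 2. With 3 counts as the limit of detection, replicate 1 allows up to 12.2 CPM for Tet2 (CPM, transcripts per 1000000 nuclear transcripts of the replicate). Its tails had 1 nt and 206 nt. No tail length was assigned to Tet2.

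**Figure D3:**
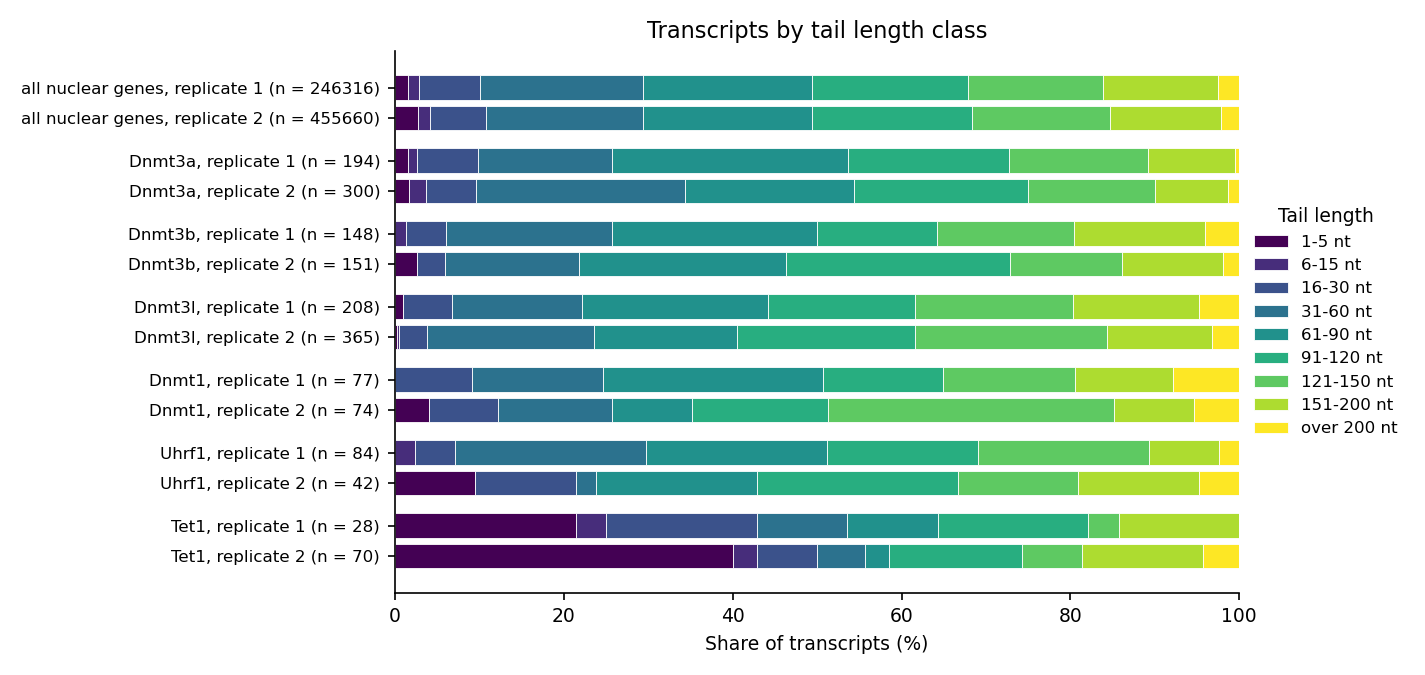
Share of transcripts (%) in 9 classes of tail length for the 6 genes and for all nuclear genes, 1 bar per replicate with its number of transcripts. The class of 1 to 5 nt takes 21.4% and 40.0% of Tet1, 0% and 9.52% of Uhrf1, and at most 4.05% of any other gene shown.

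Apart from Tet1, and from Uhrf1 in replicate 2, tails of 1 to 5 nt were scarce in the group. Uhrf1 had 0 and 4, Dnmt3a 3 and 5, Dnmt3b 0 and 4, Dnmt1 0 and 3, and Dnmt3l 2 and 1. The interval of Uhrf1 in replicate 2, 3.77% to 22.1%, lies above the nuclear share of 2.75%, and in replicate 1 Uhrf1 had none. All 7 genes together had 1.49% in replicate 1 but 4.58% in replicate 2, and without Tet1 it was 0.703% (0.301% to 1.64%) and 1.93% (1.22% to 3.03%). Tet1 thus contributed 34 of the 57 very short tails and 98 of the 1743 transcripts. These intervals without Tet1 include the nuclear shares of 1.52% and 2.75%.

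Bases other than A were also counted in the remaining genes. Dnmt3a had them in 26 of 194 tails, or 13.4% (9.31% to 18.9%), and 20 of 300, or 6.67% (4.36% to 10.1%). Dnmt3l had 11.5% (7.88% to 16.6%) and 9.86% (7.21% to 13.4%), and Dnmt1 had 9.09% (4.47% to 17.6%) and 12.2% (6.53% to 21.5%). Uhrf1 had 17.9% (11.1% to 27.4%) and 7.14% (2.46% to 19.0%), and Tet1 21.4% (10.2% to 39.5%) and 7.14% (3.09% to 15.7%). Replicate 1 was higher in all but Dnmt1. It was also higher over all nuclear transcripts, and apart from Dnmt3b the intervals of the replicates overlapped. Over the 7 genes together, 15.6% and 8.47% of tails held such a base.

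**Figure D4:**
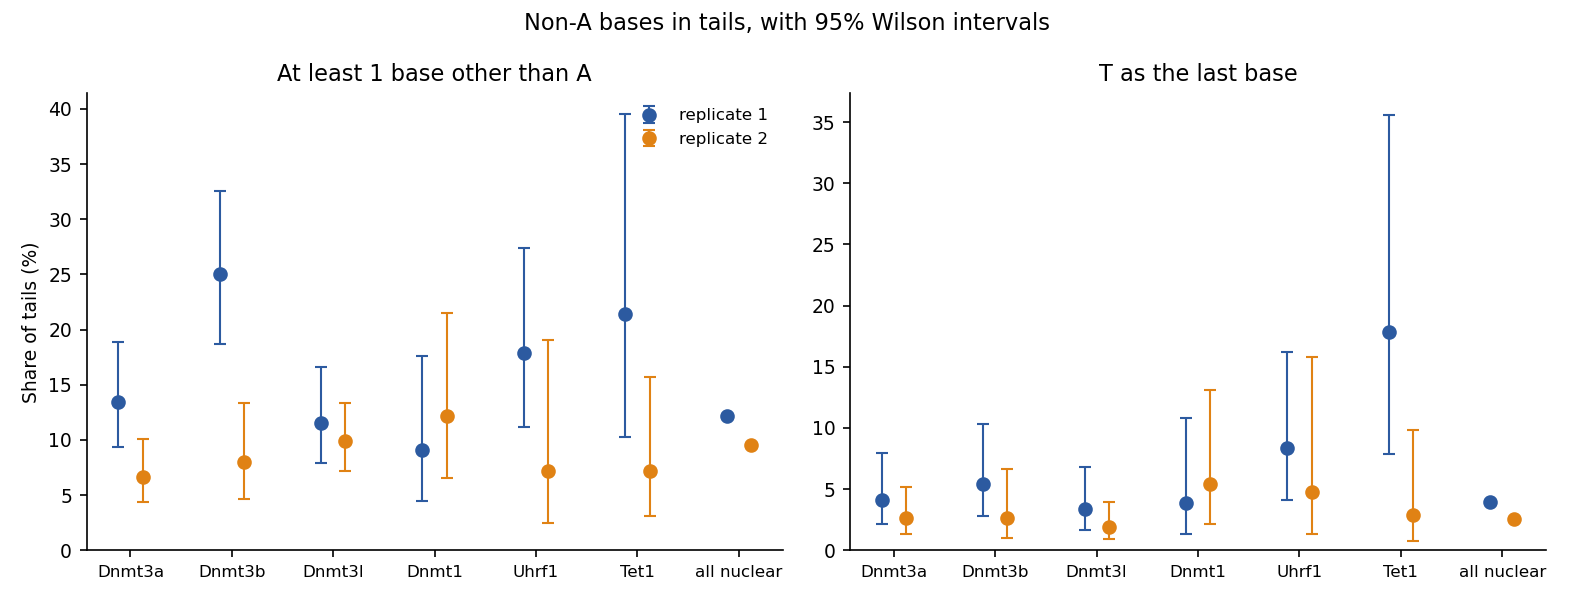
Share of tails (%) with at least 1 base other than A (left) and with T as the last base (right) in each gene and replicate, with 95% Wilson intervals. For Dnmt3b the left panel shows 25% in replicate 1 and 7.95% in replicate 2 with intervals apart, and intervals of the other genes overlap between replicates.

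T at the tail's end was most often found on short tails. Among tails of 6 to 30 nt, 12 of 56 ended in T in replicate 1, or 21.4% (12.7% to 33.8%), and 10 of 60 in replicate 2, or 16.7% (9.31% to 28.0%). For all nuclear tails of these lengths the shares were 18.3% and 13.4%, inside both intervals. Among tails of 31 to 60 nt, the 7 genes had 8.73% (11 of 126, with a lower bound of 4.94%) in replicate 1, above the 3.82% of all nuclear tails, but 2.16% (0.844% to 5.43%) in replicate 2, where all nuclear tails had 2.59%. Among tails of at least 61 nt the 7 genes had 2.56% and 1.82%, and all nuclear tails 2.23% and 1.39%. Tet1 had 4 of 6 and 1 of 7 short tails that ended in T, Dnmt1 1 of 7 and 4 of 6, and Uhrf1 3 of 6 and 2 of 5. Dnmt3a had 1 of 16 and 3 of 24, Dnmt3b 1 of 9 and 0 of 5, and Dnmt3l 2 of 12 and 0 of 13. These few tails are shown in part because their ends look alike, a run of A closed by 1 to 3 T.
Tet1 replicate 1, 14 nt: aaaaaaaaaaaaaT
Tet1 replicate 1, 18 nt: aaaaaaaaaaaaaaaaTT
Tet1 replicate 1, 22 nt: aaaaaaaaaaaaaaaaaaaaTT
Tet1 replicate 2, 17 nt: aaaaaaaaaaaaaaaTT
Dnmt1 replicate 2, 18 nt: aaaaaaaaaaaaaaaTTT
Dnmt1 replicate 2, 19 nt: aaaaaaaaaaaaaaaaTTT
Uhrf1 replicate 1, 14 nt: aaaaaaaaaaaaaT
Uhrf1 replicate 2, 18 nt: aaaaaaaaaaaaaaaaTT
Dnmt3a replicate 2, 14 nt: aaaaaaaaaaaTTT
The 18 nt Dnmt1 tail was read on 3 transcripts, with 14 to 65 passes, and without molecular identifiers copies of 1 molecule cannot be told apart from separate molecules.

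The number of transcripts also differed between the replicates for part of the group. Uhrf1 had 341 CPM (275 to 422) in replicate 1 and 92.2 (68.2 to 125) in replicate 2. Dnmt1 had 313 (250 to 391) and 162 (129 to 204), and Dnmt3b had 601 (512 to 706) and 331 (283 to 389). In these 3 of 6 genes the intervals did not overlap and replicate 1 was higher, which held for 8.77% of the 4286 genes. Genes with replicate 2 higher are not counted in that share. Intervals also narrow, relative to the level, with more transcripts, and depth was not matched, so whether 3 of 6 is an excess was not tested. The other 3 genes overlapped. Dnmt3a had 788 and 658, Dnmt3l 844 and 801, and Tet1 114 and 154 CPM.

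The ratio of replicate 1 to replicate 2 was 3.70 for Uhrf1, at percentile 99.3 of the 4286 genes, 1.92 for Dnmt1 and 1.81 for Dnmt3b, while the median gene had 1.06. Fewer cells with a transcript and fewer copies per cell cannot be told apart in such bulk libraries. As these ratios come from 2 replicates of 1 group, they describe the libraries and not a condition. CPM values were compared only within a gene and not between genes of different length.

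**Figure D5:**
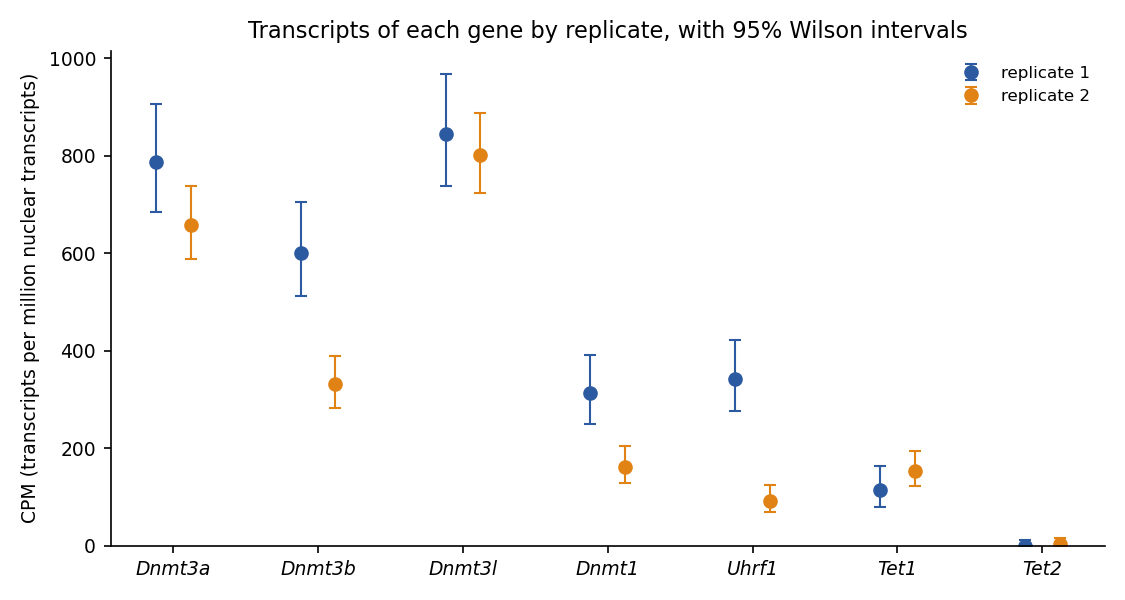
Level of the 7 genes in CPM (transcripts per 1000000 nuclear transcripts) in replicates 1 and 2, with 95% Wilson intervals, and for Tet2 in replicate 1, at 0, the limit of 3 counts. Intervals are apart for Dnmt3b, Dnmt1 and Uhrf1, with replicate 1 higher, and overlap for the other 4 genes.

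For the 5 genes that had at least 30 transcripts in both replicates, the most similar tail distributions were searched among 1611 other protein-coding genes. The measure was the largest gap between the cumulative distributions, from 0 for equal to 1 for fully apart, summed over the 2 replicates. The nearest to Dnmt3l were Cnbp (0.0698), Ptma (0.0819) and Eif4a1 (0.0952). Those to Dnmt3b were Rps14 (0.116), Eif3l (0.119) and Stmn2 (0.125), and those to Dnmt3a were Prps1 (0.122), Pabpc1 (0.124) and Capzb (0.130). Dnmt1 was nearest to Pa2g4 (0.175), Ipo5 (0.185) and Mrto4 (0.191), and Uhrf1 to Nudc (0.168), Ccne1 (0.186) and Emb (0.199). Gaps widen with fewer transcripts, so they are not comparable between the 5 genes. None of the 5 came out as nearest to another, and Tet1, with 28 transcripts in replicate 1, was not searched.

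A list of 36 further genes that remove, read, target or feed DNA methylation gave the wider pathway. Of these, 27 had at least 10 transcripts, 16 of them below and 11 above the median gene, with a median of 70.8 nt and a range from 17.4 to 113 nt. Among the 18 tested in each replicate, 9 were below the median gene in both and 4 above it in both, where 33.4% and 35.7% of all 4286 genes were. The 9 genes below included 8 of the 9 tested for recruitment and access, and the 4 above were all genes of methyl donor supply. No test was made of these counts.

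Within recruitment and access, the 3 genes with the most transcripts were Trim28, Hells and Zfp57. Trim28, the corepressor of KRAB zinc finger proteins, had 74.1 and 78.5 nt. Hells, a chromatin remodeller needed for normal DNA methylation, had 64.5 and 28.7 nt, and 13.7% of its pooled tails had 1 to 5 nt. Zfp57, which guards imprinted methylation, had 52.9 and 48.3 nt. For Hells and Mat2a, the Wilson interval of the share of very short tails lay above the share of all nuclear transcripts in both replicates. They were the only 2 of these 18 genes, and the same held for Tet1 and for 2.22% of the 4286 genes.

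For the methyl donor, Mat2a, whose enzyme makes S-adenosylmethionine, had 66.2 and 68.2 nt, its regulatory partner Mat2b 88.6 and 81.8 nt, and Shmt2, which feeds the folate cycle, 101 and 96.1 nt. For removal, Apex1, a base excision repair nuclease, had 72.4 and 84.0 nt. Smug1 and Mbd4, glycosylase genes of the same role, had only 12 and 10 transcripts in all. Among the readers, Mbd3 had 70.4 and 84.6 nt, and Mbd2 and Mbd1 had only 17 and 11 transcripts. Closely related genes took few reads of any pass number in replicates 1 and 2, with 2 and 1 for Tet3, 9 and 18 for Uhrf2 and 0 for Dnmt3c, the pseudogenes Dnmt3a-ps1 and Dnmt3l-ps1 and the antisense genes Dnmt3aos and Dnmt3bos.

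The labelled cell type was checked against marker lists. At least 1 transcript was found for 5 of 5 core pluripotency genes, with 1506 and 1159 CPM in sum. Formative markers other than Dnmt3a and Dnmt3b had at least 1 transcript for 5 of 6, Sox3 with only 1 in each replicate, with 386 and 461 CPM, and Zic2 was at 0. Naïve markers had at least 1 transcript for 8 of 9, with 982 and 1203 CPM, and Prdm14 was at 0. Fibroblast markers summed to 4.06 and 2.19, primitive endoderm to 0 and 2.19, trophoblast to 12.2 and 6.58, and neural to 20.3 and 0 CPM, and mesoderm markers were not detected. At 0 in both replicates were Col1a1, Col1a2, Col3a1, Postn and Lum of 6 fibroblast markers, Gata4, Sox17, Sox7 and Pdgfra of 5 primitive endoderm markers, Cdx2 and Gata3 of 4 trophoblast markers, Neurog2 of 3 neural markers, and T, Mixl1 and Mesp1, all 3 of mesoderm. Among the naïve markers, Klf4 had 0 and 1 and Tbx3 2 and 2 transcripts. The higher naïve sum in replicate 2 rested on Zfp42, singled out after its values were seen, with 524 and 816 CPM. The other 8 naïve markers summed to 459 and 386 CPM. The part of cell composition in the replicate differences of Uhrf1, Dnmt1 and Dnmt3b was not tested.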

How the data were processed

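PAIso-seq reads of 1 wild-type 24h-EpiLC sample with 2 barcoded replicates were analysed. The authors made consensus reads with ccs, split them by barcode, mapped them to mm10 and took the soft-clipped 3′ bases, extended into adjoining A tracts, as the tail. Reads without a tail were dropped, which removes transcripts with none. The submitters' processing notes name minimap2 2.17 and featureCounts 2.0.1. The deposited table gives, for each of 1013675 reads, counts of passes and of A, T, C, G and non-A bases of the tail, without normalization. Columns 5 and 11 were not used, and tails were used as deposited. Tails were to hold 4 or more A among their first 8 bases according to the study's methods, which 14683 of the nuclear tails, all of 1 to 5 nt, do not meet. It was added only as an alternative.

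Reads with at least 7 passes were kept, 354259 and 593361 by replicate. Of 12842 gene identifiers, 12835 were found in GENCODE vM21 (GRCm38), and mitochondrial genes were left out. Tail length was the number of A plus non-A bases. Genes needed 10 transcripts over both replicates, or 10 in each where replicates were compared. Medians have exact order-statistic 95% intervals and shares have Wilson 95% intervals. No p-value was computed. The 7 genes, the pathway and marker lists and the alternatives were chosen with earlier results of these data known. The text names all 7 genes, the 3 nearest genes of each by tail distribution, and the 3 pathway genes with the most transcripts of each role, plus genes that a count turns on. Scripts were tested on simulated data and ran in Python 3.11.15 with pandas 2.3.3, scipy 1.17.1, numpy 2.4.6 and matplotlib 3.10.9.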

Additional observations from a re-analysis of the deposited data

How the results depend on the processing

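The results were recomputed with no pass filter, at least 15 passes, only A bases counted, tails of at least 6 or 15 nt, medians or arithmetic means, at least 30 transcripts per gene, protein-coding genes only, and wells with 1 transcript only. For non-A bases, the first and last base were also left out. Not every setting was applied to every value, and the shares of very short and non-A tails were not recomputed for the settings on length and gene summary. A minimum length of 6 or 15 nt would by definition remove all tails of 1 to 5 nt. In the settings run, the 5 summary values of the group moved by less than 1 SD of the replicates, with 1 exception. Under the filter of the methods for at least 4 A in the first 8 bases, added after seeing the data, the share of 1 to 5 nt tails fell from 3.27% to 0.118%, by construction. For the 6 genes minus all genes and for de novo minus maintenance, this SD (5.93 and 7.36 nt) exceeded the value (0.785 and 3.85 nt). A change of sign could therefore pass, and de novo minus maintenance turned negative with tails of at least 6 or 15 nt, medians and arithmetic means. The values were -0.540, -0.558, -2.30 and -1.69 nt. Tail lengths of single genes moved by more than 1 SD in 25 of 54 cases, each time upwards, with medians, arithmetic means or very short tails dropped, and Tet1 also without replicate 2 (29.0 nt). Dnmt1 went from 80.9 to at most 104 nt, Dnmt3a from 70.8 to 87.7 nt and Tet1 from 20.1 to 82.5 nt. With either replicate left out, the median of the 6 genes minus all genes ranged from -4.03 to 4.35 nt, genes below the median gene from 2 to 4, the share of 1 to 5 nt tails from 1.49% to 4.58%, the share with a non-A base from 8.47% to 15.6%, and de novo minus maintenance from -0.0996 to 10.3 nt. Without replicate 2 the share of 1 to 5 nt tails thus fell from 3.27% to 1.49%. Tet1, left out by a choice made after seeing the data, took it to 1.40% and the difference from all genes from 0.785 to 4.56 nt. Dnmt3l was the longest of the 6 genes under 12 of 12 settings, the reported one included. Tet1 was the shortest under 10 of 12, and Dnmt3a under the 2 with a minimum length, where Tet1 had 77.5 and 82.5 nt in place of 20.1 nt. Among the 10 was the filter for at least 4 A, under which Tet1 and Dnmt3a were close, with 74.3 and 75.8 nt. No paired analysis was possible because the data hold a single group. Depth limits Tet1 and Uhrf1, with as few as 28 and 42 transcripts in a replicate, and Tet2 most.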
